A study of Rattus norvegicus with 6 samples.

Results

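Myc, Jun, Fos and Egr1 are 4 genes of the early transcriptional response to growth signals and stress. They were chosen by their Ensembl rat gene IDs (ENSRNOG00000004500 for Myc, ENSRNOG00000026293 for Jun, ENSRNOG00000008015 for Fos and ENSRNOG00000019422 for Egr1), and all 4 were found among the 43360 gene IDs of the count files. The question for each was whether its transcript level in liver differed between vehicle-treated rats, rats given a carcinogen regimen, and rats given the same regimen with an antioxidant. The count files hold IDs without symbols, and the RefSeq table used here lists all 4 symbols but 0 Ensembl IDs, so the pairing of IDs with symbols is that of the rule and was not checked against an annotation.

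The libraries came from poly(A)-selected liver RNA of male Fischer-344 rats, an inbred strain, with 18 rats allotted to 3 groups for 16 weeks. Control rats received daily oral carboxymethyl cellulose, the vehicle, at 0.5% (w/v). Rats of the HCC group, named for hepatocellular carcinoma, received weekly intraperitoneal diethylnitrosamine (DEN) at 50 mg/kg followed by oral 2-acetylaminofluorene (2-AAF) at 25 mg/kg. DEN alkylates DNA after activation in the liver and 2-AAF is an aromatic amine carcinogen. The HCC/NAC group received this regimen and N-acetylcysteine (NAC), which supplies cysteine for making the antioxidant glutathione, at 300 mg/kg by mouth each day. Each group has 2 libraries, which were made by pooling the RNA of 5 animals per group. The labels call the animals mice in the extraction text and rats elsewhere, and do not say whether the 2 libraries of a group held different animals. The p-values below therefore rest on the distance between libraries alone, and that distance may be technical. The samples are pieces of whole liver, with no separation of tumour from surrounding tissue stated, and fewer cells of a type cannot be told apart from less RNA per cell. Whether liver markers were present in each library was not analysed here, since the IDs carry no names.

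Immediate early genes are transcribed within minutes of a mitogenic or stress signal, without new protein synthesis, and their transcripts are short-lived. Jun and Fos encode basic leucine zipper proteins that pair to form the transcription factor AP-1, Jun also with itself. Egr1 encodes a zinc finger transcription factor that binds GC-rich sites. Myc encodes a helix-loop-helix leucine zipper protein that binds E-boxes with its partner Max and drives ribosome production, metabolism and cell division. In the liver, this group of genes is known for its sharp and transient induction after partial hepatectomy, when hepatocytes leave quiescence.

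Of the 4 genes, only Egr1 had an entry in the set of promoter sequences used here. The upstream sequences of Myc, Jun and Fos were therefore not searched. That of Egr1 carries the element through which serum response factor switches on many immediate early genes. The 250 bases before the annotated start of Egr1, from RefSeq at chr18:26736828-26737077 of the GRCr8 build on the plus strand, are given 5′ to 3′ with the matches to the CArG box, the binding motif of serum response factor, in capitals.
Egr1: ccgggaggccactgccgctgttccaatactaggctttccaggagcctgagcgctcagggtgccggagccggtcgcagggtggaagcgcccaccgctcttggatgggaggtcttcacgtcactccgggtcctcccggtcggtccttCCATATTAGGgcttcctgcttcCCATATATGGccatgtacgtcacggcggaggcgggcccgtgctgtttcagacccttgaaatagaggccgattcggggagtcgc
The window holds 2 CArG boxes, which begin 105 and 83 bases before the start. Of 33469 RefSeq rat promoters of the same length, 1.5% held at least 1 CArG box and 0.0209%, which is 7 promoters, held 2 or more. The letters TGACGT, the core of the motif of cAMP response element binding proteins, occur 2 times on the minus strand, beginning 136 and 67 bases before the start as ACGTCA, and are found in 6.95% of the promoters. TGACTCA, the AP-1 motif, was not among the letters of this window and is found in 4.05% of promoters. CACGTG, the E-box bound by Myc, and GCGGGGGCG, a motif of Egr1 itself, were not among them either and are found in 5.59% and 2.45%. Motifs were searched on both strands and do not overlap one another here. A match describes the letters only, and no binding was measured. The genome build behind the counts is not given in the sources used here, so the coordinates are those of the RefSeq table alone.

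Library totals ranged from 33917707 to 37717373 counts. Levels are given as CPM, counts divided by library size and brought to a common depth, with library sizes scaled by the trimmed mean of M-values (TMM), which multiplied the HCC library sizes by 1.19 and 1.18 and those of the other 4 libraries by 0.91 or 0.92. The expression filter kept 16898 IDs, among them all 4 genes. Fold changes and p-values are from edgeR's quasi-likelihood test over these IDs with 1 estimate of the spread for all 3 groups, and a gene is said to have risen only at a Benjamini-Hochberg adjusted p under 0.05. Without the TMM step, the median log2 fold change of all tested IDs moved by 0.37 for HCC against control and by -0.37 for HCC/NAC against HCC, so a direction that flips without scaling is stated beside the gene.

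Myc, Jun and Egr1 rose in the livers of both carcinogen-treated groups, and Fos gave no call in any comparison. Myc rose most, 8.31-fold in HCC and 8.84-fold in HCC/NAC livers, Jun rose about 2.4-fold to 2.6-fold, and Egr1 rose 3.18-fold in HCC and 5.36-fold in HCC/NAC livers. With NAC the levels of Myc and Jun were close to those of HCC livers, whereas that of Egr1 was 1.69-fold higher without passing the threshold. In all, 3 of the 4 genes rose in HCC against control, where 17.0% of tested IDs rose and 34.8% changed in either direction. The same 3 rose in HCC/NAC against control, where 21.3% of IDs rose and 46.2% changed. The median log2 fold change of the 4 genes was 1.50 in HCC and 1.90 in HCC/NAC livers, beside medians of 0.051 and 0.048 over all tested IDs. Both comparisons use the same control libraries, so these 2 counts do not stand apart from each other.

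**Figure D1:**
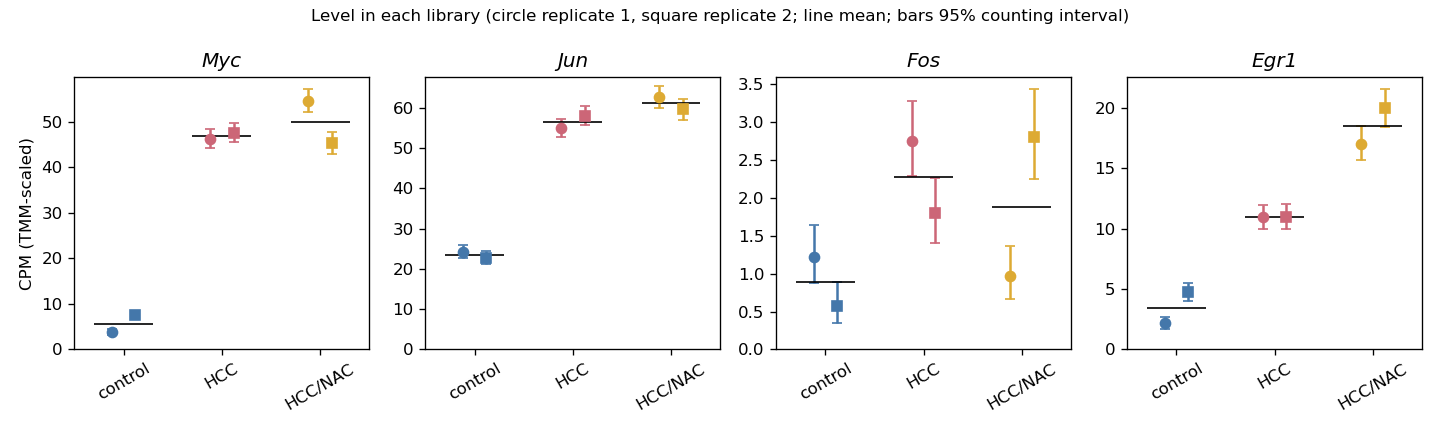
Level of each gene in each of the 6 libraries, in TMM-scaled CPM on a linear axis from 0, by group; circles are replicate 1, squares replicate 2, horizontal lines the mean of n = 2 and bars the 95% counting interval of the single library. Myc, Jun and Egr1 are lowest in both control libraries, and the Fos libraries of a group lie far apart.

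Myc, the growth regulator of the set, was counted 131 and 249 times in control replicates 1 and 2, 2084 and 1907 times in HCC, and 1809 and 1471 times in HCC/NAC livers. These counts correspond to 3.79 and 7.52 CPM in control, 46.3 and 47.6 CPM in HCC and 54.5 and 45.3 CPM in HCC/NAC. All 4 carcinogen-treated libraries thus lay far above both control libraries, and the HCC and HCC/NAC ranges overlapped. In rank terms the gene moved from the 41.6th and 51.6th percentile of tested IDs in the control libraries to between the 86.5th and 89.1st percentile in the 4 others. Its mean rose from 5.66 ± 2.6 CPM (SD, n = 2) in control to 46.9 ± 0.94 CPM (SD, n = 2) in HCC livers, a log2 difference of 3.06 ± 0.23 (SE; edgeR adjusted p = 5.23e-07) or 8.31-fold with a 95% interval of 5.87 to 11.8. In HCC/NAC livers it was 49.9 ± 6.5 CPM (SD, n = 2), a log2 difference of 3.14 ± 0.23 (SE; edgeR adjusted p = 3.66e-07) against control.

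The size of the Myc rise leaned on which control library was used, since these lay 1.98-fold apart. Among 3699 IDs within 2-fold of its control level, the median distance between the control libraries was 1.23-fold, and 4.24% of those IDs lay as far apart as Myc. Without control replicate 2 the log2 fold change in HCC was 3.69, and without control replicate 1 it was 2.64. The corresponding values for HCC/NAC were 3.79 and 2.71, and the rise was called in each of these fits. Among the 7485 IDs with a mean of at least 10 CPM, 98 (1.31%) had a log2 fold change in HCC as high as that of Myc, and 67 (0.895%) had one in HCC/NAC. Over all tested IDs, which include many nearly absent from control liver, the shares were 7.26% and 6.77%. Both control libraries lay below 10 CPM, so Myc entered the smaller set through the groups where it was high. Its share there is therefore no separate evidence of the rise.

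Jun, the AP-1 partner that can act without Fos, had 837 and 755 counts in control, 2475 and 2328 in HCC and 2081 and 1938 in HCC/NAC livers. The scaled levels were 24.2 and 22.8 CPM in control, 54.9 and 58.1 CPM in HCC, and 62.7 and 59.6 CPM in HCC/NAC. The control libraries were both below all others, and replicates of a group differed by 1.06-fold, 1.06-fold and 1.05-fold in control, HCC and HCC/NAC. Jun had the least spread of the 4 genes. Its coefficient of variation between libraries, beyond counting error, was estimated at 6.82%, beside 14.7% for Myc, 19.0% for Egr1 and 45.0% for Fos. These are square roots of edgeR's gene-wise dispersions, an estimate apart from the spread used in the quasi-likelihood test. It rose from 23.5 ± 1.0 CPM (SD, n = 2) to 56.5 ± 2.2 CPM (SD, n = 2) in HCC livers, a log2 difference of 1.26 ± 0.09 (SE; edgeR adjusted p = 4.87e-07). In HCC/NAC livers it reached 61.1 ± 2.2 CPM (SD, n = 2), a log2 difference of 1.38 ± 0.09 (SE; edgeR adjusted p = 2.08e-07) against control. Leaving out any single library kept the first value between 1.23 and 1.31 and the second between 1.32 and 1.41. The rise of Jun was smaller than that of Myc but lay in the upper part of abundant IDs. Of those with a mean of at least 10 CPM, 4.72% had a log2 fold change in HCC as high. Over all tested IDs, the shares as high as Jun were larger, at 17.04% in HCC and 17.96% in HCC/NAC.

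Egr1, the zinc finger member, had 75 and 157 counts in control, 493 and 440 in HCC and 566 and 649 in HCC/NAC livers. Its levels were 2.17 and 4.74 CPM in control, 10.9 and 11.0 CPM in HCC, and 17.0 and 20.0 CPM in HCC/NAC. The 3 groups did not overlap and stood in the order control, HCC, HCC/NAC. Egr1 rose from 3.46 ± 1.8 CPM (SD, n = 2) in control to 11.0 ± 0.027 CPM (SD, n = 2) in HCC livers, a log2 difference of 1.67 ± 0.29 (SE; edgeR adjusted p = 0.000739). In HCC/NAC livers it rose to 18.5 ± 2.1 CPM (SD, n = 2), a log2 difference of 2.42 ± 0.29 (SE; edgeR adjusted p = 3.12e-05) against control. As for Myc, the control libraries were far apart, by 2.18-fold, where IDs of a similar level had a median distance of 1.30-fold and 5.86% lay as far apart. Without control replicate 2 the log2 fold changes were 2.40 in HCC and 3.17 in HCC/NAC, and without control replicate 1 they were 1.21 and 1.94, all called. Over all tested IDs, 13.6% had a log2 fold change as high as that of Egr1 in HCC and 9.59% in HCC/NAC. Among IDs of at least 10 CPM, the shares were 3.13% and 1.67%. Both control libraries lay below 10 CPM, so Egr1, like Myc, entered the smaller set through the groups where it was high. Its share there is therefore no separate evidence of the rise.

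Fos, whose protein needs a Jun partner to bind DNA, had the fewest counts of the 4, with 42 and 19 in control, 124 and 72 in HCC, and 32 and 91 in HCC/NAC livers. The levels were 1.22 and 0.57 CPM in control, 2.75 and 1.80 CPM in HCC, and 0.96 and 2.80 CPM in HCC/NAC. Both HCC libraries were above both control libraries, whereas HCC/NAC replicate 1 lay within the control range and replicate 2 just above HCC replicate 1. The HCC/NAC replicates differed 2.91-fold, and their 95% Poisson intervals, which cover counting error only, ran from 0.66 to 1.36 CPM and from 2.25 to 3.44 CPM without touching. The mean was 0.89 ± 0.45 CPM (SD, n = 2) in control and 2.27 ± 0.68 CPM (SD, n = 2) in HCC livers, a log2 difference of 1.34 ± 0.67 (SE; edgeR adjusted p = 0.149) with a 95% interval of -0.13 to 2.81. In HCC/NAC livers the mean was 1.88 ± 1.3 CPM (SD, n = 2), a log2 difference of 1.07 ± 0.67 (SE; edgeR adjusted p = 0.221) against control with an interval of -0.41 to 2.54. These intervals reach from a slight decrease to rises as large as those of Jun and Egr1, so the missing call does not show that Fos stayed level. In HCC against control the log2 fold change ran from 0.97 without control replicate 2 to 1.98 without control replicate 1, and was 1.01 without HCC replicate 1, with no call when any single library was left out. Without HCC/NAC replicate 1, Fos was called higher in HCC/NAC than in control, at 1.62 (adjusted p = 0.0416, edgeR; range over all alternatives 0.0416 to 0.943), and without HCC/NAC replicate 2 the log2 fold change was 0.088. Libraries of similar total counts also differed in the number of IDs with 1 to 5 counts. Control replicate 1 and both HCC/NAC libraries held 336, 632 and 708 such IDs, and the other 3 held 2847 to 3364. The part of this difference in the Fos values was not tested.

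**Figure D2:**
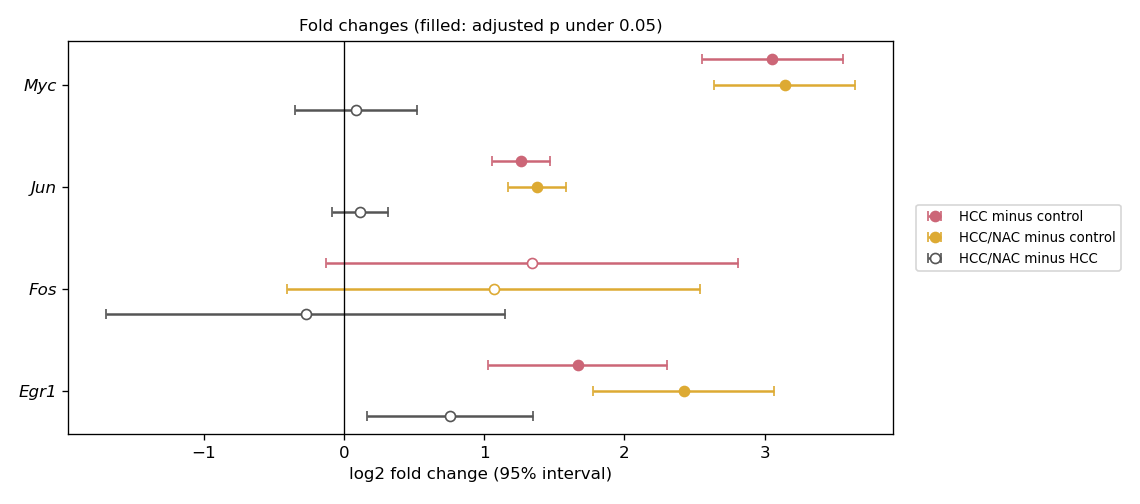
Log2 fold change of each gene in the 3 comparisons with its 95% interval from the edgeR model of all 6 libraries (n = 2 per group); filled points have an adjusted p under 0.05. Myc, Jun and Egr1 lie above 0 against control in both carcinogen-treated groups, the Fos intervals span 0, and no gene passes between HCC/NAC and HCC.

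The comparison of HCC/NAC with HCC livers asked whether NAC altered these genes under the carcinogens. None of the 4 genes was called (0 of 4, edgeR), where 27.7% of tested IDs changed, 11.2% higher and 16.5% lower. At an unadjusted p under 0.05 there was 1 gene, Egr1, and DESeq2 and limma voom each called 1 gene, again Egr1. Egr1 was 1.69-fold higher with NAC, a log2 difference of 0.76 ± 0.27 (SE; edgeR adjusted p = 0.0581) with a 95% interval of 0.16 to 1.35. Both HCC/NAC libraries were above both HCC libraries, as was so in this direction for 29.0% of tested IDs. The call for Egr1 depended on the processing and on the libraries used: it was made in 11 of 16 alternatives, with adjusted p from 0.00103 to 0.306 over all of them, and the log2 fold change stayed between 0.38 and 0.85. The alternative with only IDs of at least 10 CPM takes in Egr1 through its high HCC/NAC libraries, so the call there is no separate support.

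For Myc the log2 fold change with NAC was 0.088 ± 0.20 (SE), edgeR adjusted p = 0.809, and the 95% interval of the fold ran from 0.786 to 1.44. A reduction of Myc by NAC to the control level, an 8.31-fold difference, lies far outside that interval, while modest changes in either direction lie within it. Like the p-values, the interval rests on the distance between pooled libraries, which may be technical, and does not cover variation between animals. For Jun the log2 fold change was 0.11 ± 0.09 (SE), edgeR adjusted p = 0.413, with a fold interval of 0.943 to 1.24. The direction of both depends on the scaling: relative to library totals alone, Myc was at 55.3 and 56.2 CPM in HCC and 50.1 and 41.4 CPM in HCC/NAC, and Jun at 65.6 and 68.6 against 57.7 and 54.5 CPM. On that scale the log2 fold changes were -0.28 for Myc, without a call, and -0.26 for Jun (adjusted p = 0.0402, edgeR; range over all alternatives 0.0402 to 0.939), beside a median of -0.42 over all tested IDs. For Fos the value was -0.27 ± 0.65 (SE), edgeR adjusted p = 0.819, with an interval of -1.70 to 1.15 that contains both a halving and a doubling. Without HCC/NAC replicate 1 it was 0.28, without HCC/NAC replicate 2 it was -1.26, and without HCC replicate 1 it was 0.042.

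**Figure D3:**
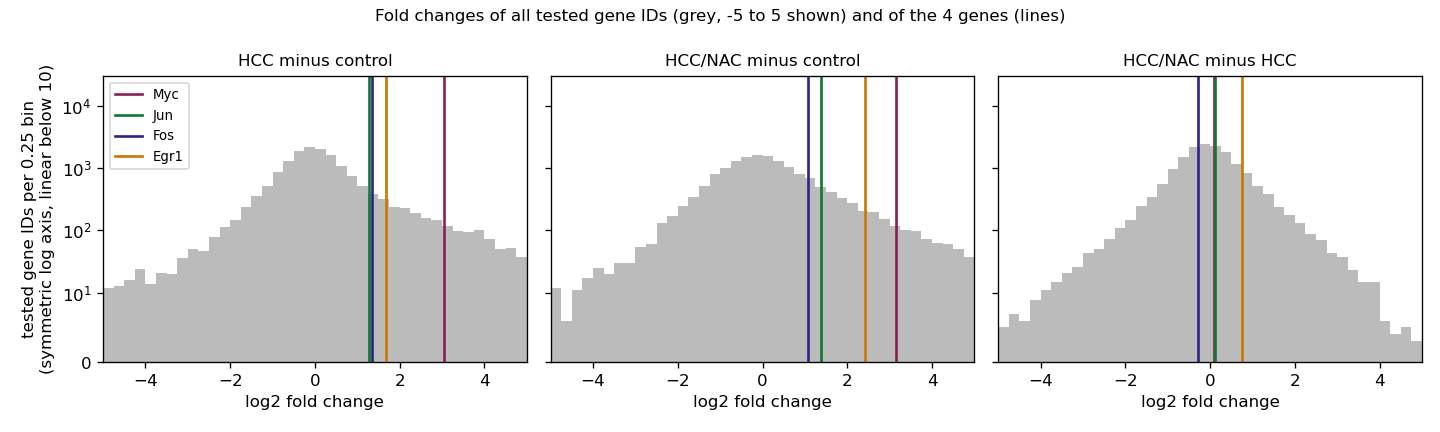
Log2 fold changes of the 16898 tested gene IDs in the 3 comparisons (grey bars, number of IDs per bin on a symmetric log axis, shown from -5 to 5), with the values of the 4 genes as vertical lines. Against control all 4 lines lie right of the peak, with Myc farthest; between HCC/NAC and HCC, Myc and Jun lie nearly on each other at 0.088 and 0.11 and Egr1 stands to the right at 0.76.

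In HCC against control the 2 groups did not overlap for any of the 4 genes, but this was so for 72.4% of all tested IDs, and in the direction of a rise for 38.3%. In HCC/NAC against control 3 of 4 did not overlap, beside 70.1% of IDs in either direction and 35.1% in the direction of a rise. Between HCC/NAC and HCC 2 of 4, Jun and Egr1, did not overlap, beside 65.9% of IDs. With 2 libraries a group, separation of the libraries alone is therefore common.

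How the genes moved relative to each other was read from the ratio of their counts within a library, which is free of library scaling. The ratio is comparable for 1 gene pair across libraries, but does not compare abundance between genes, since counts grow with transcript length. The Myc to Jun ratio was 0.157 and 0.330 in control, 0.842 and 0.819 in HCC, and 0.869 and 0.759 in HCC/NAC livers. Myc thus gained on Jun in all 4 carcinogen-treated libraries, and the HCC and HCC/NAC values overlapped. The Myc to Egr1 ratio was 1.75 and 1.59 in control, 4.23 and 4.33 in HCC, and 3.20 and 2.27 in HCC/NAC. It was highest in HCC and intermediate in HCC/NAC livers, with no overlap between groups. The Jun to Egr1 ratio was 11.2 and 4.81 in control, 5.02 and 5.29 in HCC, and 3.68 and 2.99 in HCC/NAC. Egr1 therefore stood higher relative to both Jun and Myc in each HCC/NAC library than in either HCC library, whatever the scaling. The Jun to Fos ratio had no order by group, with 19.9 and 39.7 in control, 20.0 and 32.3 in HCC, and 65.0 and 21.3 in HCC/NAC. The exact two-sided permutation test of 2 against 2 libraries cannot give a p below 0.333, which is the value for each pair of groups that did not overlap, so these ratios are descriptions.

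**Figure D4:**
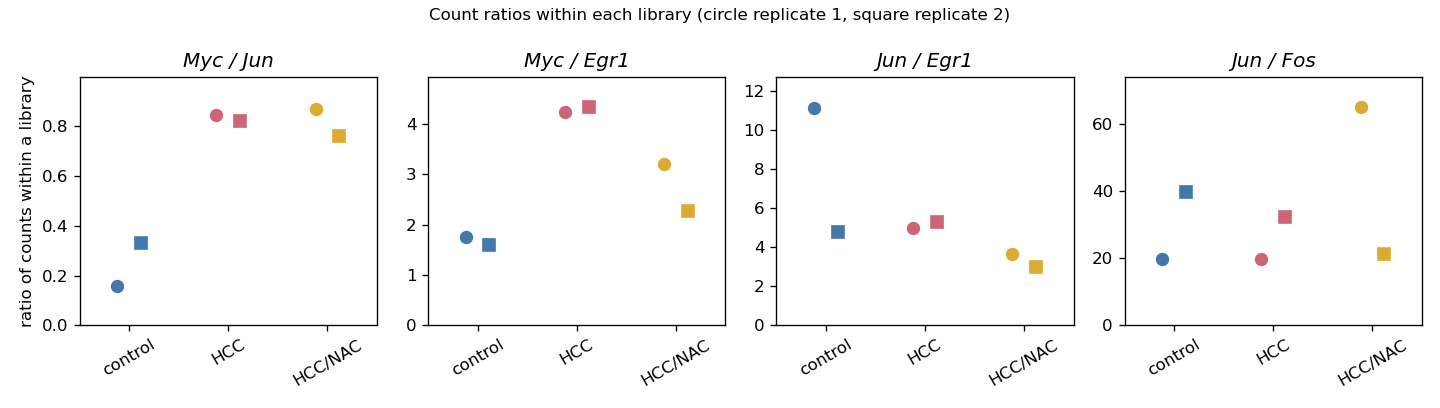
Ratio of counts within each library for 4 gene pairs, on linear axes from 0, by group; circles are replicate 1 and squares replicate 2. Myc/Jun is low only in the 2 control libraries, Myc/Egr1 separates all 3 groups, and Jun/Fos varies as much within groups as between them.

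Across the 6 libraries, log2 CPM of Myc correlated with that of Jun at r = 0.97 and with that of Egr1 at 0.95, and Jun with Egr1 at 0.92. Fos correlated with Myc, Jun and Egr1 at 0.57, 0.65 and 0.49. The 6 points fall into a control and a carcinogen-treated set and share library depth and scaling, so the coefficients describe that split. Of 7484 other IDs with a mean of at least 10 CPM, 341 (4.56%) reached r of at least 0.95 with Myc, 374 (5.00%) with Jun and 192 (2.57%) with Egr1, whereas 9 of 7485 (0.120%) did so with Fos. The ID nearest to Myc in pattern was ENSRNOG00000018510 (r = 0.9995). It had 15.8 and 16.9 CPM in control, 20.8 and 20.7 CPM in HCC and 21.3 and 20.6 CPM in HCC/NAC. That is a similar shape with a far smaller range, and its log2 fold change of 0.34 in HCC was not called (edgeR adjusted p = 0.0665). The ID nearest to Jun was ENSRNOG00000029670 (r = 0.9996), with 7.21 and 6.92 CPM in control, 21.4 and 22.4 CPM in HCC and 24.3 and 23.0 CPM in HCC/NAC. For Egr1 and Fos the highest coefficients were 0.9984 and 0.9804. The files do not pair these IDs with names.

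**Figure D5:**
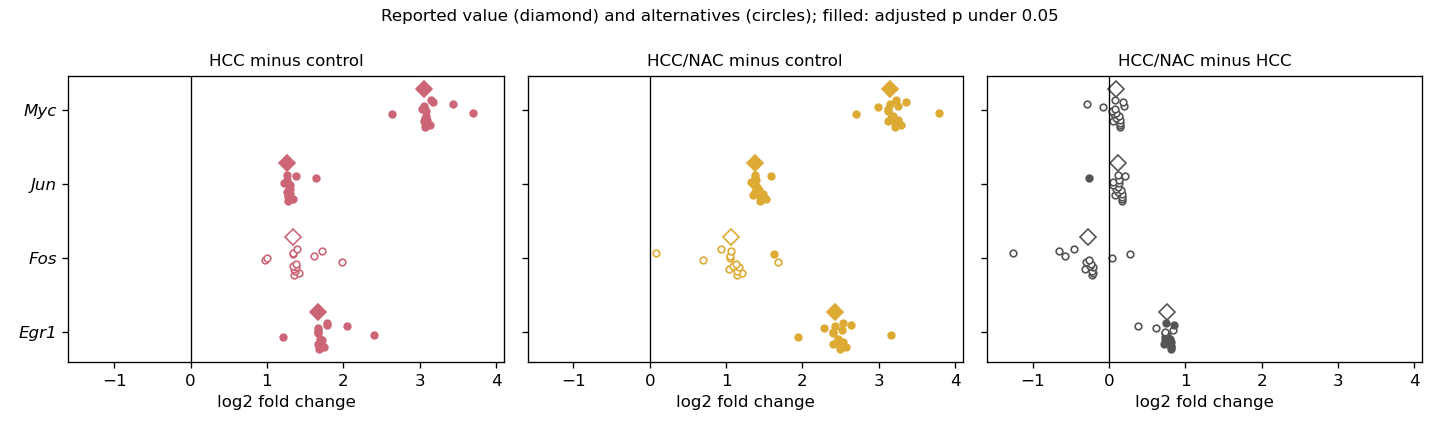
Log2 fold change of each gene as reported (diamonds) and under 15 or 16 alternative settings (circles), with filled symbols where the adjusted p was under 0.05. Against control, every setting keeps Myc, Jun and Egr1 called and positive; between HCC/NAC and HCC, only Egr1 stays above 0 in all settings.

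The file names give both control libraries 1 prefix and all 4 carcinogen-treated libraries another. If the prefix marks a batch, batch and treatment cannot be told apart for the 2 comparisons with control, and no within-batch value can be had for them. HCC and HCC/NAC share their prefix, but their libraries differ in the number of IDs with 1 to 5 counts. There were 2847 and 3364 in HCC, and 632 and 708 in HCC/NAC. The control libraries, with 336 and 3271, differed from each other as well. This difference coincides with the groups in HCC/NAC against HCC, and its part in the values of the 4 genes was not tested.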

How the data were processed

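The values of the 6 libraries are raw counts per Ensembl ID, used as deposited; per the file headers they were counted from STAR alignments. The submitters' processing notes also name FastQC, featureCounts and edgeR. The sources used here give no versions, build, annotation or counting settings, and no molecular identifiers, so 95% counting intervals (exact Poisson) cover counting error only.

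Counts were fitted with edgeR 4.0.16 in R 4.3.3 (filterByExpr, TMM, glmQLFit, glmQLFTest, 1 mean per group, 3 residual degrees of freedom) with Benjamini-Hochberg adjustment at 0.05 over 16898 IDs. Standard errors come from the F statistic and 95% intervals from the t quantile at the model's degrees of freedom. Correlations used log2 CPM with a prior count of 2. The fit was also run on counts simulated from its own fitted spread with few changed IDs, which cannot show how it performs on these data. Replicates differed beyond sampling noise in each group (chi-square per degree of freedom 5.29 to 12.3 over IDs with 30 or more counts in the pair).

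The genes, lists and tests were chosen with earlier results of these data known. Named IDs were the 4 genes and, for each, the ID of at least 10 mean CPM with the highest Pearson r. At most 2 that were higher in HCC, called or not, were printed, in the order Myc, Jun, Fos, Egr1. Lists of related genes and cell type markers could not be used without symbols. Alternatives were scaling by RLE or upper quartile, DESeq2 1.42.0, no low-count filter, a filter at 1 CPM in 4 libraries, a replicate block, only the groups compared, and each library left out. Chosen after seeing the data were no scaling, only IDs averaging 10 CPM or more, and limma 3.58.1 voom with library weights.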

Additional observations from a re-analysis of the deposited data

How the results depend on the processing

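Over 189 alternative values of the 12 gene comparisons, 172 kept direction and side of the threshold, 12 passed a threshold not passed as reported in the same direction, 5 changed sign and 0 lost a call. Of the 5, Jun in HCC/NAC against HCC without scaling also gained a call. All alternatives kept Myc, Jun and Egr1 called higher against control. Egr1 in HCC/NAC against HCC was called with RLE (0.81), upper-quartile scaling (0.82), DESeq2 (0.81), no filter (0.72) and the stricter filter (0.82), on the log2 scale. It was also called with the compared groups only (0.80), IDs of at least 10 CPM (0.85) and voom (0.75). Egr1 entered the set of at least 10 CPM through its HCC/NAC libraries, at 17.0 and 20.0 CPM, so its call there is no separate support. The cause of the difference from the reported fit was not tested. Leaving out each library gave 0.62 to 0.84: it was called without either control library (edgeR adjusted p = 0.00631 and 0.00552) and not without any of the 4 libraries compared (0.0551 to 0.192). In the same comparison, no scaling turned Myc to -0.28 and Jun to -0.26, which follows from the larger HCC scaling factors. Upper-quartile scaling moved the median of all tested IDs by 0.14 in HCC/NAC against control. Leaving out each library gave -0.075 to 0.20 for Myc and -1.26 to 0.28 for Fos, and 0.088 to 1.68 for Fos in HCC/NAC against control. It gave 3093 to 5075 called IDs in HCC/NAC against HCC, lowest without HCC replicate 1, beside 4686 as reported. Where 1 library was left in a group, it was assumed to vary like the other groups.

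Replicate numbers are shared by the groups, but the labels give no shared animal, day or batch behind a number, and deviations of same-numbered libraries correlated at -0.0072 to 0.0067. With the replicate number as a block, Egr1 in HCC/NAC against HCC was 0.74 (adjusted p = 0.0187, edgeR), and the called IDs were 5982, 7650 and 4861 in HCC against control, HCC/NAC against control and HCC/NAC against HCC, beside 5883, 7807 and 4686. Fos has no value for IDs of at least 10 CPM because its mean lay below. At 19 to 124 counts per library, the values of Fos are limited by counting error as well as by replicate spread.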
